A study of Mus musculus with 6 samples.

Results

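The genes described here are 10 feedback and target genes of canonical Wnt signalling: Axin2, Lef1, Tcf7, Nkd1, Nkd2, Notum, Rnf43, Znrf3, Ccnd1 and Tnfrsf19. They were chosen by name from the pathway, though with earlier results of these data known, so shares set beside all genes are descriptive. All 10 were found among the 22824 rows of the expression files. RNA from femurs of C57BL/6 mice was sequenced in 6 libraries, 3 labelled OE and 3 labelled Ctrl. OE mice carried a Cre transgene under 9.6 kb of DMP1 regulatory sequence together with a Wnt7b allele at the R26 locus, so that Wnt7b was switched on where the Dmp1 sequence is active, mainly in osteocytes and mature osteoblasts. The labels state that all OE mice were homozygous. Ctrl mice were littermates that carried the R26-Wnt7b allele without the Cre, so the allele is shared by both groups. The labels used here state neither age nor sex, and nothing ties a library to a separate animal, so that p-values measure the spread between these libraries, which may be technical. The question the design puts to these 10 genes is whether they stood higher where Wnt7b was overexpressed.

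In canonical signalling a Wnt ligand binds a Frizzled receptor and an LRP co-receptor, the complex that destroys beta-catenin is held back, and beta-catenin enters the nucleus and activates genes through TCF and LEF factors. Several of the activated genes dampen the pathway again. Axin2 is a scaffold of the destruction complex, Nkd1 and Nkd2 bind Dishevelled, Notum is a secreted enzyme that removes the lipid a Wnt needs to bind its receptor, and Rnf43 and Znrf3 are membrane ubiquitin ligases that clear Frizzled from the cell surface. Lef1 and Tcf7 encode DNA-binding factors of the pathway and are also used in developing lymphocytes. Ccnd1 encodes cyclin D1, which carries cells into DNA synthesis, and Tnfrsf19 encodes TROY, a receptor of the TNF family. In bone, canonical Wnt signalling favours osteoblast formation and restrains osteoclasts.

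The sequences just before the gene starts are shown because TCF and LEF factors bind DNA at sites whose core letters can be searched there. RefSeq promoter windows (GRCm38.p6) were found for 7 of the members, Axin2, Lef1, Tcf7, Nkd1, Nkd2, Rnf43 and Tnfrsf19, with 13 annotated starts in all. Among their windows of 250 bases before the start, 2 of 13 held CTTTGA or its reverse complement TCAAAG, against 13.8% of all 32851 windows. The motif was searched on both strands and overlaps no other motif searched. Both windows with a match lie inside the gene, before an internal start. These windows and, for comparison, the first starts of Lef1 and Axin2 are printed 5′ to 3′ on the gene's strand, with matches in capitals.
Lef1 internal start, chr3:131156044-131156293, plus strand: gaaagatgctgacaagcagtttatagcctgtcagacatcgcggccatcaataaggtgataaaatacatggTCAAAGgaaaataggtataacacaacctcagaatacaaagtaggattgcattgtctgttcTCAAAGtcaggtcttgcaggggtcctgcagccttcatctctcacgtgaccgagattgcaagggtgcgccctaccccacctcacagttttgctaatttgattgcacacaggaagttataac
Tnfrsf19 internal start, chr14:61037988-61038237, minus strand: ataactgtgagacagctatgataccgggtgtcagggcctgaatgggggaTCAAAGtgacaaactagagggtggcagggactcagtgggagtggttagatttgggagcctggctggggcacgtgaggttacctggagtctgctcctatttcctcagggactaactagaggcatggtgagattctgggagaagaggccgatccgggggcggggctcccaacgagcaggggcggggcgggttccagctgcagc
Lef1 first start, chr3:131110047-131110296, plus strand: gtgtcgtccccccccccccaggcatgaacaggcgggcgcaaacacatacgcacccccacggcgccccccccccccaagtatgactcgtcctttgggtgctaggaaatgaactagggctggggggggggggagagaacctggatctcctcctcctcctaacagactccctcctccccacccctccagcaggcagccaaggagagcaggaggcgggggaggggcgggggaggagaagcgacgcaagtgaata
Axin2 start, chr11:108920099-108920348, plus strand: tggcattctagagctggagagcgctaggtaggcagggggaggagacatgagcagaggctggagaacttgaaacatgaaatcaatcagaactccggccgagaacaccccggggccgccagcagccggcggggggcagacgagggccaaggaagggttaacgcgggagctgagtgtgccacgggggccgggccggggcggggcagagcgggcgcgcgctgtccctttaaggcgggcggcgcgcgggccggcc
The internal Lef1 window held 2 matches, 180 and 120 bases before the start, and the internal Tnfrsf19 window 1 match, 201 bases before it. The first Lef1 window and the Axin2 window held none, which says only that these letters are absent from those 250 bases. The files give a single FPKM per gene, so transcripts from these starts cannot be told apart.

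Values are FPKM, fragment counts corrected for transcript length and for how many fragments each library had mapped, as deposited. Absolute depth is unknown. FPKM totals were 614597, 775942 and 596413 across OE 1 to 3, against 732964, 763632 and 620702 across the libraries labelled Ctrl 1 to 3. Wnt7b, the overexpressed gene, stood at 2.49, 0.661 and 0.295 FPKM in OE 1, OE 2 and OE 3, at 0.909 in the library labelled Ctrl 1, at 0.00833 in Ctrl 2, and was listed at 0 in Ctrl 3. Its difference of 0.65 (SE 0.44) in log2(FPKM + 1) had a limma adjusted p of 0.597. For Wnt7b the library labelled Ctrl 1 therefore lay within the OE range, which goes against its label, so results are also given without it. Because it was singled out from these values, p-values without it are descriptive only. Bone genes split the libraries in the same way: Dmp1, a matrix protein gene of osteocytes, stood at 215, 109 and 83.8 FPKM across OE 1 to 3, against 141, 14.6 and 15.2 across the libraries labelled Ctrl 1 to 3. Although the femurs are labelled free of cartilage and marrow, the 9 cartilage genes summed to between 263 and 547 FPKM in OE and between 16.2 and 338 in Ctrl. Mpo, a neutrophil granule gene, stood between 1311 and 2906 FPKM in OE and between 3388 and 3941 in Ctrl. In the library labelled Ctrl 1 Mpo stood at 3591, so for this gene that library went with its label. Most neutrophil genes did not separate the groups: all OE values lay below all Ctrl values in 2 of 15, Mpo among them, and the rest overlapped. All OE values lay below all Ctrl values in 8.97% of genes tested, and above in 4.59%. Whether the label is right was not tested. Col1a1 and Col1a2, the main bone collagen genes, are listed at 0 in both libraries with replicate number 1 and stood between 179 and 4029 FPKM in the other 4, so they are left out of the osteoblast counts. In bulk RNA, fewer cells of a type and less RNA per cell cannot be told apart.

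No member passed the test between OE and Ctrl with all 6 libraries. By limma on log2(FPKM + 1), with Benjamini-Hochberg adjustment over 12177 genes that reached 1 FPKM in at least 3 libraries, 0% of genes passed an adjusted p of 0.05. Unadjusted p-values under 0.05 were found for 999 genes (8.20%), among them Ccnd1 and Tnfrsf19. Of the 10 members, 6 entered this test (Lef1, Tcf7, Nkd2, Notum, Ccnd1 and Tnfrsf19). Axin2, Nkd1, Rnf43 and Znrf3 were below the filter and are given by their values. Because Lef1, Nkd2 and Notum reach 1 FPKM in all OE libraries and in the library labelled Ctrl 1 and not in Ctrl 2 or Ctrl 3, members that entered are not read as a sample of all 10. Across all 10, 9 had a positive OE minus Ctrl difference with a median of 0.67, against 50.1% positive and a median of 0.00 over the 19648 genes above 0 in at least 1 library.

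**Figure D1:**
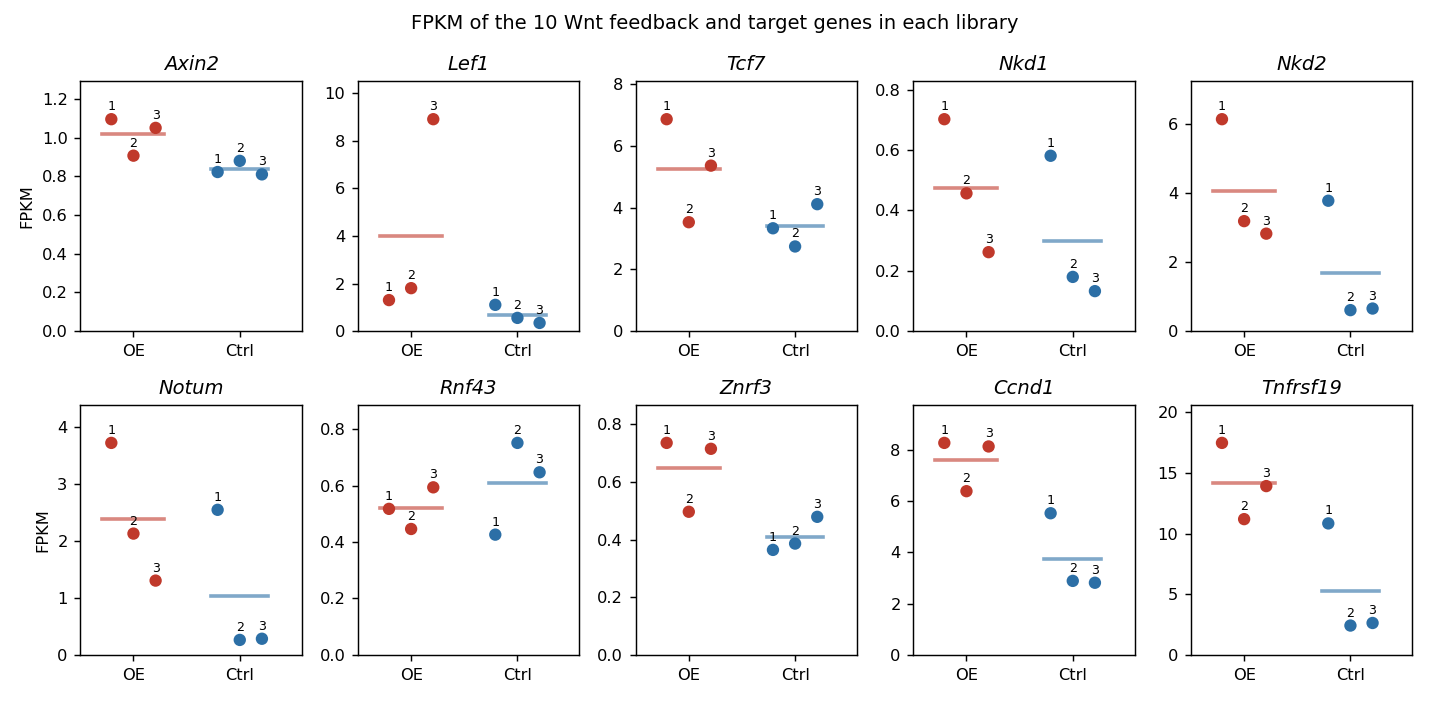
FPKM of each member (vertical axes, each starting at 0) in the 3 OE and the 3 Ctrl libraries, numbered by replicate, with group means as lines. In Nkd1, Nkd2 and Notum the library labelled Ctrl 1 stood above OE 2 and OE 3, and in Axin2, Lef1, Znrf3, Ccnd1 and Tnfrsf19 it stood below all OE libraries.

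The members fell into groups by the place of the library labelled Ctrl 1. In Axin2, Lef1, Znrf3, Ccnd1 and Tnfrsf19 the lowest OE value exceeded the highest Ctrl value, which makes 5 of 10 members, against 5.60% of the 19648 genes (4.59% of the genes tested), and 0 of 10 lay wholly below, against 6.56%. Some of these gaps were narrow: the lowest OE and highest Ctrl values were 0.907 and 0.880 FPKM for Axin2, 0.496 and 0.479 for Znrf3, and 11.2 and 10.8 for Tnfrsf19. After scaling the libraries to FPKM outside marrow and muscle genes, 3 of 10 remained (Lef1, Ccnd1 and Tnfrsf19), against 6.44% of genes, and 0 lay wholly below, against 5.54%. In Nkd1, Nkd2 and Notum the library labelled Ctrl 1 was second only to OE 1. Without it, 8 of 10 members lay wholly above and 1, Rnf43, wholly below, against 19.8% and 14.3% of genes. With OE 3 left out too, these counts were the same, against 25.6% and 22.4% of genes.

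Notum, Nkd2 and Nkd1, the extracellular and Dishevelled-binding inhibitors, followed the library order of Wnt7b. Notum (ENSMUSG00000042988, chromosome 11, 120653788 to 120661175, minus strand, GRCm38) stood at 3.72, 2.13 and 1.30 FPKM across OE 1 to 3, against 2.54, 0.263 and 0.284 across the libraries labelled Ctrl 1 to 3. Nkd2 (ENSMUSG00000021567, chromosome 13, 73818534 to 73847631, minus strand) stood at 6.15, 3.19 and 2.83 FPKM across OE 1 to 3, against 3.78, 0.611 and 0.657 across the libraries labelled Ctrl 1 to 3. Nkd1 (ENSMUSG00000031661, chromosome 8, 88521354 to 88594884, plus strand) was weaker, at 0.702, 0.457 and 0.262 FPKM across OE 1 to 3, against 0.581, 0.180 and 0.133 across the libraries labelled Ctrl 1 to 3. In all 3 genes OE 1 was highest, Ctrl 2 and Ctrl 3 were lowest, and the groups overlapped through the library labelled Ctrl 1. The highest library held 14.1 times the lowest for Notum, 10.1 times for Nkd2 and 5.29 times for Nkd1.

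None of these 3 inhibitors differed between OE and Ctrl beyond the replicate spread with all 6 libraries. Notum averaged 2.38 ± 1.23 FPKM over the OE libraries and 1.03 ± 1.31 over the Ctrl libraries (SD, n = 3 each), a difference of 0.85 (SE 0.46) in log2(FPKM + 1) with a limma adjusted p of 0.561. Nkd2 averaged 4.06 ± 1.82 FPKM over the OE libraries and 1.68 ± 1.82 over the Ctrl libraries (SD, n = 3 each), a difference of 1.06 (SE 0.47) with a limma adjusted p of 0.554. Nkd1 averaged 0.474 ± 0.221 FPKM over the OE libraries and 0.298 ± 0.246 over the Ctrl libraries (SD, n = 3 each), with an exact two-sided permutation p = 0.4. Without the library labelled Ctrl 1, Nkd2 was higher in OE by 1.57 (SE 0.29, limma adjusted p = 0.0370), while Notum, at 1.35 (SE 0.31), had an adjusted p of 0.0728. Without both that library and OE 3, Notum passed at 1.59 (SE 0.24, limma adjusted p = 0.00663). Nkd2 and Notum met the filter through OE and the library left out, so nothing is read from these passes.

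Their order was that of Wnt7b in nearly every pair of libraries. Of the 15 pairs of libraries, 15 stood in the same order in Nkd1 as in Wnt7b, 14 in Nkd2 and 14 in Notum. The pair that sets Nkd1 apart is Ctrl 2 and Ctrl 3, where Wnt7b is near the floor, at 0.00833 and 0 FPKM. The median over all 12177 genes tested was 7 pairs, and 5.68% of these genes had 14 or 15. This order was not particular to Wnt inhibitors: 5 of 7 osteocyte genes tested, 5 of 6 osteoclast genes and 5 of 10 osteoblast genes (leaving out Col1a1 and Col1a2) also had 14 or 15. Measured against Dmp1, 15 of 15 pairs agreed for Notum and for Nkd2 and 14 for Nkd1. For the other members the count of pairs shared with Wnt7b was 12 for Ccnd1, 11 for Axin2, 11 for Tnfrsf19, 10 for Lef1, 9 for Tcf7, 9 for Znrf3 and 3 for Rnf43.

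Set against Dmp1 in the same library, Notum was nearly level. Notum stood at 1.73%, 1.95% and 1.56% of the Dmp1 FPKM across OE 1 to 3, against 1.81%, 1.80% and 1.87% across the libraries labelled Ctrl 1 to 3. The ratio averaged 1.74% ± 0.197 over the OE libraries and 1.82% ± 0.0374 over the Ctrl libraries (SD, n = 3 each), so the groups overlapped, and its highest value was 1.25 times its lowest. Dmp1 itself varied 14.7-fold between libraries. Among 12154 genes tested with a value above 0 in every library, the ratio to Dmp1 varied by a median of 17.0-fold, and 3 varied as little as Notum or less, Notum included. Nkd2 stood at 2.85%, 2.92% and 3.37% of Dmp1 across OE 1 to 3, against 2.68%, 4.18% and 4.33% across the libraries labelled Ctrl 1 to 3. Nkd1 stood at 0.326%, 0.418% and 0.312% across OE 1 to 3, against 0.412%, 1.23% and 0.874% across the libraries labelled Ctrl 1 to 3. Dmp1 was chosen for this comparison after the values were seen, from 5 marker genes tried, and the Notum ratio varied 1.57-fold against Sp7 and 7.37-fold against Bglap, both osteoblast genes.

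**Figure D2:**
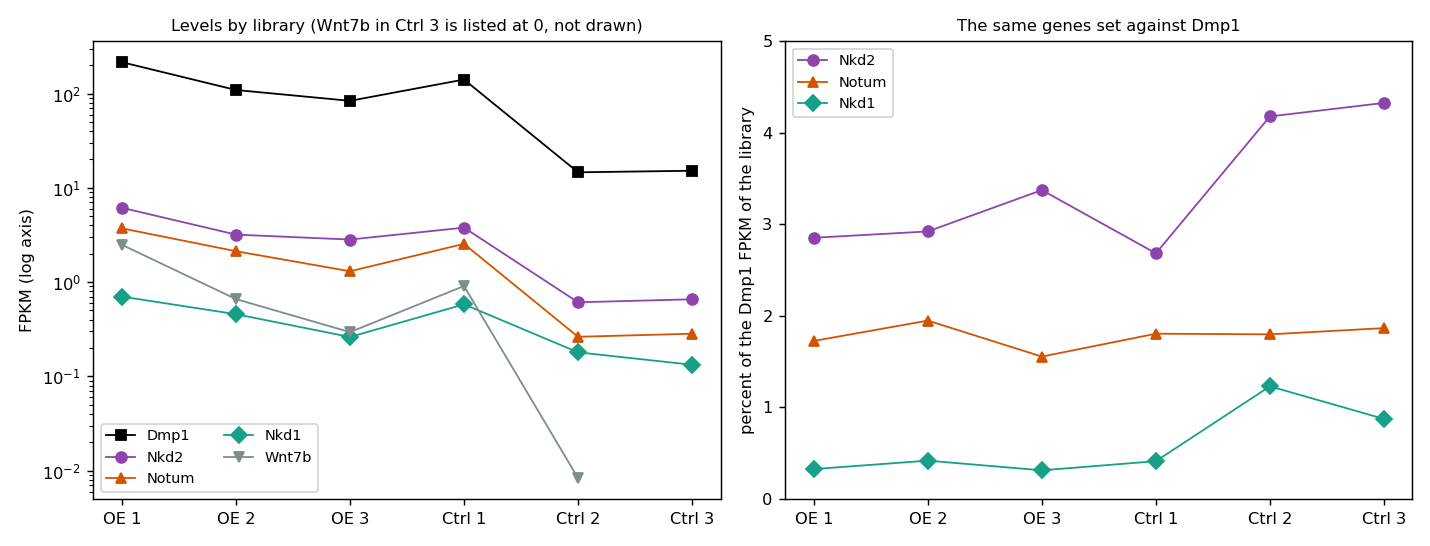
Left, FPKM on a log axis of Dmp1, Nkd2, Notum, Nkd1 and Wnt7b in each library. Right, Nkd2, Notum and Nkd1 as a percent of the Dmp1 FPKM of the same library, where Notum stays between 1.56% and 1.95%.

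Axin2, the scaffold often used as a readout of the pathway, was low and varied least of the 10. Axin2 (ENSMUSG00000000142, chromosome 11, 108920349 to 108950783, plus strand) stood at 1.10, 0.907 and 1.05 FPKM across OE 1 to 3, against 0.822, 0.880 and 0.810 across the libraries labelled Ctrl 1 to 3. The 3 OE values lay above the 3 Ctrl values, with a mean of 1.02 ± 0.0984 FPKM over the OE libraries and 0.837 ± 0.0373 over the Ctrl libraries (SD, n = 3 each). The ratio of the means was 1.21, and the exact two-sided permutation p was 0.1, the smallest that 3 against 3 libraries allow. Unlike Notum and Nkd2, Axin2 was not low in Ctrl 2 and Ctrl 3 relative to the library labelled Ctrl 1, and its highest library held 1.35 times its lowest. In a limma fit without a filter its adjusted p was 0.632.

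The ubiquitin ligase genes Rnf43 and Znrf3, which act on the same receptors, stood in different library orders. Rnf43 (ENSMUSG00000034177, chromosome 11, 87662722 to 87735539, plus strand) stood at 0.517, 0.446 and 0.594 FPKM across OE 1 to 3, against 0.426, 0.751 and 0.647 across the libraries labelled Ctrl 1 to 3. It was highest in the libraries where Notum was lowest, and was the single member with a negative difference, with 0.519 ± 0.0738 FPKM over the OE libraries and 0.608 ± 0.166 over the Ctrl libraries (SD, n = 3 each, exact two-sided permutation p = 0.5). Znrf3 (ENSMUSG00000041961, chromosome 11, 5276324 to 5444847, minus strand) stood at 0.735, 0.496 and 0.715 FPKM across OE 1 to 3, against 0.364, 0.386 and 0.479 across the libraries labelled Ctrl 1 to 3. All 3 OE values lay above the Ctrl values, with 0.649 ± 0.132 FPKM over the OE libraries and 0.410 ± 0.0609 over the Ctrl libraries (SD, n = 3 each, exact two-sided permutation p = 0.1). Neither gene reached 1 FPKM in any library. The partners of these ligases were measured as well: Lgr4, a receptor for R-spondins, which remove Rnf43 and Znrf3 from the membrane, stood at 5.71, 3.70 and 3.05 FPKM across OE 1 to 3, against 3.28, 0.740 and 1.07 across the libraries labelled Ctrl 1 to 3. Rspo3, an R-spondin, stood at 2.19, 2.39 and 1.50 FPKM across OE 1 to 3, against 1.76, 0.687 and 0.541 across the libraries labelled Ctrl 1 to 3. Neither passed the test with 6 libraries, each with a limma adjusted p of 0.554.

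Lef1 was highest by far in OE 3, the library in which B progenitor genes were also highest. Lef1 (ENSMUSG00000027985, chromosome 3, 131110471 to 131224356, plus strand) stood at 1.31, 1.81 and 8.90 FPKM across OE 1 to 3, against 1.11, 0.559 and 0.348 across the libraries labelled Ctrl 1 to 3. The groups did not overlap, though OE 1 and the library labelled Ctrl 1 differed little. The mean was 4.004 ± 4.25 FPKM over the OE libraries and 0.671 ± 0.392 over the Ctrl libraries (SD, n = 3 each). The difference of 1.29 (SE 0.54) in log2(FPKM + 1) had a limma adjusted p of 0.554, and it was 0.63 (SE 0.26, limma adjusted p = 0.622) without OE 3. Lef1 passed in a single setting, with neither the library labelled Ctrl 1 nor OE 3, at 0.81 (SE 0.20, limma adjusted p = 0.0464). Lef1 met the filter through OE and the library labelled Ctrl 1, so nothing is read from that pass.

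The B progenitor list held 15 genes with values, none listed at 0, and all 15 were highest in OE 3. Their FPKM summed to 365, 522 and 1343 across OE 1 to 3, against 424, 634 and 512 across the libraries labelled Ctrl 1 to 3, with Cd24a, which other blood cells express too, the most abundant. Rag2, which cuts antigen receptor genes in lymphocyte precursors, stood at 1.31, 1.48 and 6.24 FPKM across OE 1 to 3, against 0.810, 0.273 and 0.221 across the libraries labelled Ctrl 1 to 3. Igll1, a surrogate light chain gene, stood at 5.18, 11.5 and 91.1 FPKM across OE 1 to 3, against 6.37, 1.59 and 1.24 across the libraries labelled Ctrl 1 to 3. Lef1 thus stood at 99.5%, 122% and 143% of Rag2 across OE 1 to 3, against 137%, 205% and 157% across the libraries labelled Ctrl 1 to 3. Rag2 was named after its values were seen and is among the genes nearest to Lef1 in profile, so a narrow ratio follows from that choice. Relative to Igll1, Lef1 was lowest in OE 3. The Lef1 order was shared by a median of 13 of 15 pairs of libraries over the B progenitor genes, 7 over the T and NK cell genes, 10 over the osteoblast genes and 7 over all genes tested. The part of B progenitor cells in the Lef1 values was not tested. Cd79a and Cd79b, parts of the B cell receptor that mature B cells keep, were also highest in OE 3, with Cd79a at 11.9, 23.2 and 80.7 FPKM across OE 1 to 3, against 18.0, 23.6 and 17.1 across the libraries labelled Ctrl 1 to 3. OE 3 stood apart in other cell types as well: all 9 erythroid and all 8 adipocyte and stroma genes measured were highest there, and all 15 neutrophil genes lowest. The erythroid genes summed to 69.3, 76.9 and 1226 FPKM across OE 1 to 3, against 70.6, 509 and 365 across the libraries labelled Ctrl 1 to 3.

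Tcf7 was highest in OE 1 and next highest in OE 3. Tcf7 (ENSMUSG00000000782, chromosome 11, 52252371 to 52283014, minus strand) stood at 6.87, 3.53 and 5.36 FPKM across OE 1 to 3, against 3.33, 2.74 and 4.11 across the libraries labelled Ctrl 1 to 3. OE 2 lay below Ctrl 3, so the groups overlapped. The mean was 5.25 ± 1.67 FPKM over the OE libraries and 3.40 ± 0.687 over the Ctrl libraries (SD, n = 3 each). The difference of 0.48 (SE 0.24) had a limma adjusted p of 0.559. It was 0.30 without OE 1, the highest library, and 0.70 without OE 2, and neither passed. All 18 T and NK cell genes had values above 0 in every library. Of these, 8 were highest in OE 3, 5 in Ctrl 2, 4 in Ctrl 3, 1 in the library labelled Ctrl 1 and 0 in OE 1, where 9 were lowest. Their FPKM summed to between 99.4 and 150 in OE and between 147 and 212 in Ctrl, mostly from Nkg7, at 66.7 to 132 FPKM in OE and 118 to 181 in Ctrl. Cd3e, a part of the T cell receptor complex, stood at 0.429, 0.807 and 1.25 FPKM across OE 1 to 3, against 0.667, 1.89 and 2.05 across the libraries labelled Ctrl 1 to 3, while Lck and Cd4 averaged 3.41 ± 2.48 and 4.01 ± 0.501 FPKM over the OE libraries, against 3.62 ± 1.04 and 2.84 ± 0.451 over the Ctrl libraries (SD, n = 3 each). Tcf7 shared a median of 6 of 15 pairs with the T and NK cell genes, 9 with the B progenitor genes, 8 with the mature B cell genes, 10 with the osteoblast genes, 10 with the osteocyte genes and 7 with all genes tested.

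**Figure D3:**
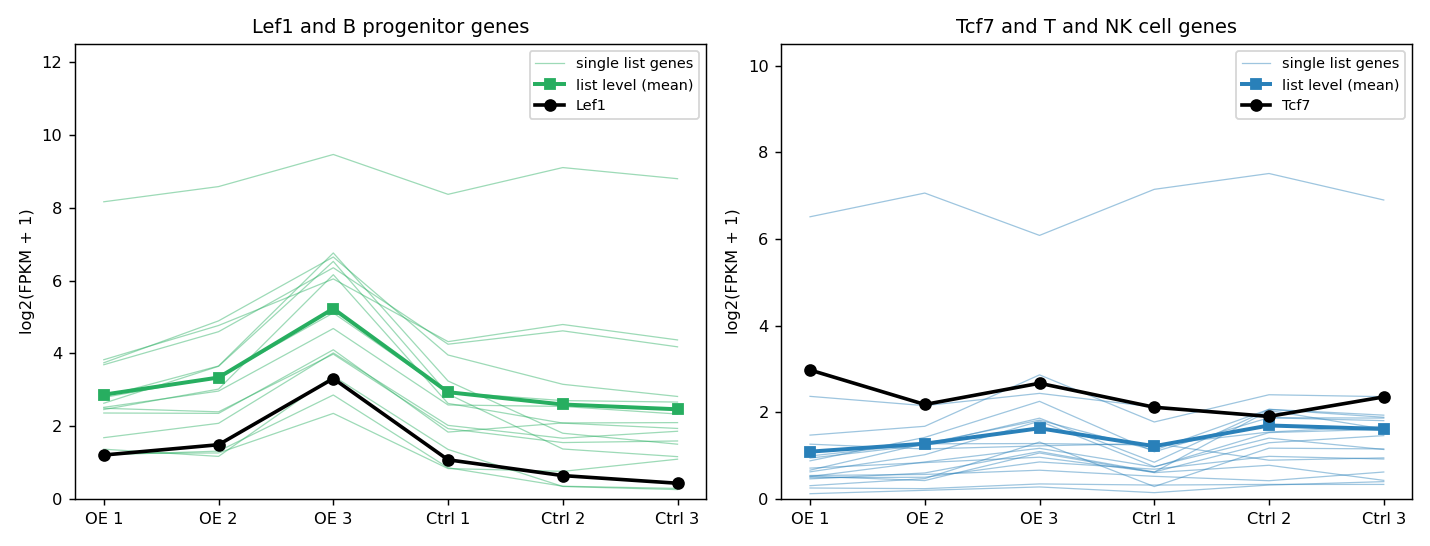
Left, log2(FPKM + 1) of Lef1 (black) with the 15 B progenitor genes (thin lines) and their mean (squares) in each library, all 15 highest in OE 3. Right, Tcf7 with the 18 T and NK cell genes, of which 8 are highest in OE 3, where Tcf7 is next to its highest, and 9 are lowest in OE 1, where Tcf7 is highest.

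In Tcf7 and Znrf3 the libraries with the lower FPKM totals (OE 1, OE 3 and Ctrl 3) stood above the others of their group, as they did in 13.0% of genes tested and in 2 of 10 members. The part of the library totals in these values was not tested, and with trimmed-mean scaling both genes kept that pattern, as did 17.7% of genes tested, with Tcf7 at 7.07, 3.49 and 5.82 FPKM across OE 1 to 3, against 3.30, 2.56 and 4.02 across the libraries labelled Ctrl 1 to 3.

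Among the 4 TCF and LEF genes, the share of Lef1 ranged widely within OE. Lef1 made up 7.24%, 15.8% and 39.2% of their summed FPKM across OE 1 to 3, against 8.09%, 7.06% and 3.41% across the libraries labelled Ctrl 1 to 3. Tcf7 made up 38.0%, 30.9% and 23.6% across OE 1 to 3, against 24.4%, 34.6% and 40.4% across the libraries labelled Ctrl 1 to 3. Tcf7l1, which often acts as a repressor, stood at 3.82 ± 0.904 FPKM over the OE libraries and 3.73 ± 1.29 over the Ctrl libraries (SD, n = 3 each). Tcf7l2 stood at 4.32 ± 1.10 FPKM over the OE libraries and 2.79 ± 1.12 over the Ctrl libraries (SD, n = 3 each), and neither passed the limma test.

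Ccnd1 and Tnfrsf19 had the highest mean FPKM of the members and the smallest p-values. Ccnd1 (ENSMUSG00000070348, chromosome 7, 144929931 to 144939925, minus strand) stood at 8.28, 6.39 and 8.14 FPKM across OE 1 to 3, against 5.53, 2.89 and 2.82 across the libraries labelled Ctrl 1 to 3. Tnfrsf19 (ENSMUSG00000060548, chromosome 14, 60963875 to 61046490, minus strand) stood at 17.5, 11.2 and 13.9 FPKM across OE 1 to 3, against 10.8, 2.42 and 2.63 across the libraries labelled Ctrl 1 to 3. In both genes OE 1 was highest, OE 3 came next, and the library labelled Ctrl 1 lay just under the lowest OE library and well above Ctrl 2 and Ctrl 3. Ccnd1 averaged 7.60 ± 1.05 FPKM over the OE libraries and 3.75 ± 1.55 over the Ctrl libraries, and Tnfrsf19 averaged 14.2 ± 3.15 FPKM over the OE libraries and 5.30 ± 4.80 over the Ctrl libraries (SD, n = 3 each). The difference was 0.90 (SE 0.24) for Ccnd1 and 1.50 (SE 0.48) for Tnfrsf19 in log2(FPKM + 1), each with a limma adjusted p of 0.554. Without the library labelled Ctrl 1 both were higher in OE, Ccnd1 by 1.15 (SE 0.17, limma adjusted p = 0.0168) and Tnfrsf19 by 2.09 (SE 0.21, limma adjusted p = 0.00565). Nkd2 also passed there. Over all genes tested, 4.25% passed as higher and 0.649% as lower in that comparison. Nothing is read from the members' count against these shares, since Lef1, Nkd2 and Notum met the filter through OE and the library left out. In the same comparison 9 of 10 osteoblast genes tested (leaving out Col1a1 and Col1a2), 7 of 9 cartilage, 6 of 7 muscle and 6 of 7 fibrous tissue genes passed as higher, and 0 of 15 neutrophil genes. The muscle genes summed to between 1016 and 1297 FPKM in OE, to 1197 in the library labelled Ctrl 1, and to 191 and 281 in the other two. The part of these tissues in the members' differences was not tested. Down-weighting the libraries that stood apart (array weights) added Notum, where 8.18% of genes passed as higher. With neither the library labelled Ctrl 1 nor OE 3, Notum and Lef1 passed as well, where 7.92% of genes passed as higher.

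**Figure D4:**
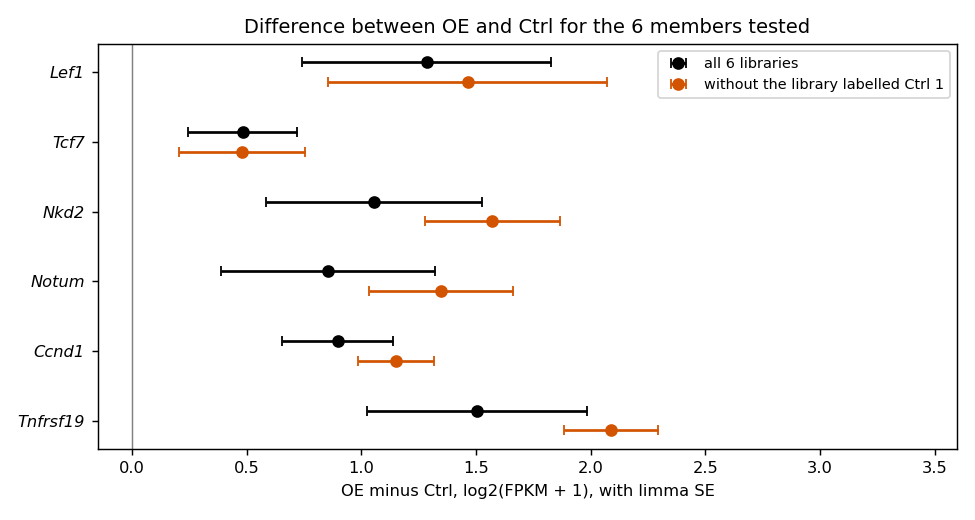
Difference between OE and Ctrl in log2(FPKM + 1) with its limma SE for the 6 members tested, with all 6 libraries (black) and without the library labelled Ctrl 1 (orange). The difference moved to 2.09 for Tnfrsf19, 1.57 for Nkd2 and 1.35 for Notum without that library, and was 0.48 for Tcf7.

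Cyclin D1 was a small part of the D cyclin RNA. Ccnd3, the D cyclin abundant in blood cells, averaged 371 ± 69.9 FPKM over the OE libraries and 454 ± 51.4 over the Ctrl libraries, and Ccnd2 averaged 10.2 ± 1.82 FPKM over the OE libraries and 8.41 ± 1.64 over the Ctrl libraries (SD, n = 3 each). Ccnd1 made up 2.18%, 1.39% and 2.50% of the summed D cyclin FPKM across OE 1 to 3, against 1.08%, 0.607% and 0.685% across the libraries labelled Ctrl 1 to 3. Of 12 proliferation genes, 0 passed the limma test and 1 had a positive difference, against 5316 of all 12177 genes tested. Their median was -0.19, where the difference of Ccnd1 was positive. Ccnd1 overlaps LTO1 on the opposite strand, and without a stated strand setting reads from the shared part cannot be told apart. GENCODE also lists antisense genes over Axin2, Lef1, Tcf7 and Notum that are not analysed here. LTO1 stood between 9.82 and 13.3 FPKM in OE and between 10.4 and 12.3 in Ctrl, in another library order than Ccnd1.

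The genes most like each tested member were found by the root-mean-square difference between centred log2(FPKM + 1) profiles over the 6 libraries. Nearest to Lef1 were Cplx2 (0.13), Rag2 (0.14) and the tendon gene Tnmd (0.20), against a spread of Lef1 itself of 0.94. Nearest to Notum were Wnt5b (0.05), Lhfp (0.05) and Ocstamp (0.06), the last a gene of osteoclast fusion. Nearest to Nkd2 were Rapgef4 (0.06), Pdgfc (0.07) and Zbtb7c (0.07), and nearest to Tcf7 were 4931406P16Rik (0.04), Ppp1r12b (0.08) and Chd6 (0.08). Nearest to Ccnd1 were Rhoq (0.07), Itgb1bp2 (0.08) and Socs2 (0.08), and nearest to Tnfrsf19 were Pard6g (0.12), Gnai1 (0.15) and A930016O22Rik (0.16). No member was among the nearest genes of another. These are descriptions over 6 libraries. Apart from Tcf7 and its nearest genes, these profiles share the split between Ctrl 2 and Ctrl 3 and the rest. In Tcf7 and its nearest genes Ctrl 3 stood above the library labelled Ctrl 1.

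The other genes of the pathway gave 0 calls in either direction with all 6 libraries. Among 17 transducers tested, from Dishevelled to the destruction complex, 9 differences were positive and the median was 0.09. Over all 12177 genes tested, 5316 were positive and the median was -0.04. Ctnnb1, which encodes beta-catenin, stood at 189, 155 and 128 FPKM across OE 1 to 3, against 159, 105 and 104 across the libraries labelled Ctrl 1 to 3 (limma adjusted p = 0.587), in the order of Wnt7b in 15 of 15 pairs. Axin1, the constitutive relative of Axin2, stood at 15.2 ± 0.713 FPKM over the OE libraries and 19.3 ± 0.935 over the Ctrl libraries, and Gsk3a, a kinase that marks beta-catenin for destruction, at 44.4 ± 3.46 FPKM over the OE libraries and 62.1 ± 8.28 over the Ctrl libraries (SD, n = 3 each). In both, all OE values lay below all Ctrl values, as in 8.97% of genes tested, and each had a limma adjusted p of 0.554.

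Among 15 nuclear factors tested, 9 differences were positive with a median of 0.04, where 5316 of all 12177 genes tested were positive. Aes, a short relative of the Groucho corepressors, stood at 234, 290 and 197 FPKM across OE 1 to 3, against 512, 517 and 385 across the libraries labelled Ctrl 1 to 3, a difference of -0.97 (SE 0.22, limma adjusted p = 0.554). In Aes the library labelled Ctrl 1 stood with Ctrl 2, away from OE. Tle2, a Groucho corepressor, stood at 7.54 ± 1.42 FPKM over the OE libraries and 4.38 ± 2.58 over the Ctrl libraries (SD, n = 3 each). Among 16 other target genes tested, 13 differences were positive with a median of 0.37, against the same 5316 of 12177. Ccn4, a secreted matrix-associated protein gene, stood at 36.3, 18.8 and 16.4 FPKM across OE 1 to 3, against 17.8, 1.64 and 2.14 across the libraries labelled Ctrl 1 to 3, and Twist1, a factor that restrains osteoblast maturation, at 13.7 ± 2.94 FPKM over the OE libraries and 5.53 ± 7.28 over the Ctrl libraries (SD, n = 3 each). Without the library labelled Ctrl 1, 5 of these 16 targets, 1 of 4 R-spondin and receptor genes (Lgr4), 1 of 15 nuclear factors (Tle2) and 0 of 17 transducers passed as higher, and 0 as lower, against 4.25% and 0.649% of all genes. In the same comparison 9 of 10 osteoblast, 7 of 9 cartilage, 6 of 7 muscle and 6 of 7 fibrous tissue genes passed as higher. The part of these tissues in the target genes was not tested.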

How the data were processed

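RNA-seq was measured in 6 mouse femur libraries, grouped and numbered from their titles. The submitters' processing notes name Cufflinks, TopHat2, DESeq and the build mm10, with no roles or settings. Values were deposited by the authors as FPKM for each gene, as the file headers say, without counts. FPKM is relative to each library's total, so abundant genes lower the rest. Of 22824 rows, 21172 matched a symbol in GENCODE M21 (GRCm38, which mm10 names). No source used here gives the strand setting or the treatment of shared reads. A count test was planned only if counts were held, so log2(FPKM + 1) was modelled with limma 3.58.1 (lmFit, eBayes with trend) in R 4.3.3 for the 12177 genes that reached 1 FPKM in 3 or more libraries. Wnt7b was below that filter and was kept in the fit by hand. Differences are OE minus Ctrl on that scale, which understates changes of low genes. Members below the filter were compared by an exact permutation test. On simulated data for this comparison with 50 genes changed at each size, 42% were called at a log2 change of 1 and 90% at 2, with 7 unchanged genes called among 12177. Tables and figures were made in Python 3.11.15 with scipy 1.17.1, pandas 2.3.3, numpy 2.4.6 and matplotlib 3.10.9. List levels are means of log2(FPKM + 1).

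The members and gene lists were chosen with earlier results of these data known. Named genes are the members, Wnt7b, a fixed set (Ctnnb1, Tcf7l1, Tcf7l2, Ccnd2, Ccnd3, Lgr4, Bglap, Dmp1, Mpo), the 2 smallest p per pathway list, the 3 most abundant genes per lymphoid list and the 3 nearest profiles per tested member. Rag2, Igll1, Cd3e, Sp7, Col1a1, Col1a2 and LTO1 were named after their values were seen. Chd8 in the nuclear list and Rag1 in the B progenitor list matched no row and were not analysed here. Alternatives were another pseudocount, other filters, scalings and weights, a block for the replicate number, and fits that left out libraries. Promoter windows are from RefSeq (GRCm38.p6).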

Additional observations from a re-analysis of the deposited data

How the results depend on the processing

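The members kept the sign of their difference in all 130 alternative values computed. Part of these could not change, since other filters, a fit without a trend and the replicate block leave the difference as it is. All alternatives reuse the same 6 libraries. The count of genes past the threshold was 0 in the 6-library fit, 1394 with array weights, 597 without the library labelled Ctrl 1 and 1388 with neither that library nor OE 3, so leaving out single libraries ranged from 0 to 597. The count of members called, all as higher, was 4 of 6 tested with array weights and 5 without both libraries. It was 0 to 3 when single libraries were left out, with 3 without the library labelled Ctrl 1. Over all genes tested, 8.18%, 7.92% and 4.25% passed as higher with array weights, without both libraries and without the library labelled Ctrl 1. Nothing is read from the members' counts, since Lef1, Nkd2 and Notum met the filter through OE and that library. The count of other pathway genes called was 12 (10 of them higher) with array weights, 10 without both libraries, and 0 to 7 when single libraries were left out. The count of members whose groups do not overlap was 3 with scaling without marrow and muscle genes, 9 without both libraries (8 above and 1 below, against 25.6% and 22.4% of genes), and 5 to 9 when single libraries were left out, with 9 without the library labelled Ctrl 1 (19.8% and 14.3% of genes). The cause of these moves was not tested beyond the omission itself. Wnt7b differed by 0.24 to 0.96 when single libraries were left out, and its call did not change. Scaling moved the median of all genes from -0.04 to 0.04. The correlation of deviations from the group mean was 0.44, 0.09 and 0.31 within a replicate number. Between different numbers it ran from -0.62 to 0.42. These values do not settle whether the replicate numbers pair the libraries. With the replicate number as a block 0 genes were called and Wnt7b differed by 0.65 (SE 0.17, limma adjusted p = 0.216). A filter of 5 FPKM left Ccnd1 and Tnfrsf19 as the members tested. Members near or under 1 FPKM (Axin2, Nkd1, Rnf43 and Znrf3) are limited by depth, which is unknown.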
